A study of Mus musculus with 4 samples.

Results

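Basal keratinocytes without a tumour label were described in single-cell RNA sequencing of skin tumours from LKPR mice. The cells were chosen by their own UMI counts (a UMI marks 1 captured RNA molecule). Droplet barcodes entered with 200 genes or more and mitochondrial UMIs below 20%. It was called a member with 0 UMIs of YFP, Cdkn2a and Ptprc, at least 1 of Epcam, at least 5 of Krt14, at least 2 of Krt15 and at most 1 of Krt1, Krt10 and Krt79 together. Of 50887 cells kept, 690 (1.36%) were members, 457 in NP137 1, 19 in NP137 2, 22 in Control 1 and 192 in Control 2.

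All animals carried Lgr5CreER, a tamoxifen-activated recombinase made in Lgr5-expressing cells, which are mainly hair follicle stem cells in skin. They also carried a floxed p53 gene (p53fl/fl) and Rosa26-YFP+/+, so that recombination removes p53 and turns on yellow fluorescent protein. All mice received 4 daily injections of 2.5 mg tamoxifen from postnatal day 28, and tumours were looked for 7 to 9 weeks later. The 2 NP137 libraries came from mice given NP137, an antibody against the secreted guidance protein netrin-1, at 10 mg/kg, once in 2 days, beginning 4 weeks past tamoxifen and lasting until death. The 2 Control libraries have no agent named in the labels. Every live cell was sorted, and 10000 were loaded per channel. Whether a library is 1 animal is not stated in the labels, and the p-values here cover the spread among these libraries alone, which may be technical.

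Basal keratinocytes form the layer of epidermis and hair follicle that sits on the basement membrane. They are held there by hemidesmosomes, carry the keratin pair Krt5 and Krt14, divide, and give rise to the layers above, where Krt1 and Krt10 replace that pair. Krt15 is known from the bulge of the hair follicle and from resting basal cells. In this mouse model unlabelled basal cells stand beside tumour cells that started from the same kind of epithelium.

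The members were unevenly spread and unevenly deep. They made up 2.75% of the cells kept in NP137 1 (95% exact binomial interval 2.51 to 3.01) and 0.112% in NP137 2 (0.0676 to 0.175). In Control 1 they made up 0.188% (0.118 to 0.285) and in Control 2 3.38% (2.93 to 3.88). Of all cells kept, each group thus held 1 library rich and 1 library poor in these cells, and the groups overlapped. The mean was 1.43% in NP137 and 1.78% in Control libraries, a difference of -0.353 percentage points (exact 2-sided permutation test over 6 assignments, p = 0.667, the smallest p possible being 0.333). The direction turned to 0.966 points without NP137 2 and to 1.24 points without Control 2. Shares were also read of unlabelled cells with an Epcam UMI and no Ptprc UMI. There members made up 21.5% in NP137 1, 3.38% in NP137 2, 15.7% in Control 1 and 21.0% in Control 2. By that measure Control 1 lay nearer to NP137 1 and Control 2 than to NP137 2. Every cell kept was also thinned to 2000 UMIs, with shallower cells left out. Members then made up 2.71% in NP137 1, 0.0572% in NP137 2, 0.188% in Control 1 and 3.54% in Control 2. Fewer cells of a type and fewer UMIs of the gate genes per cell cannot be told apart where a gate counts UMIs.

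The summed UMIs of the members were 1484884 and 166179 in NP137 1 and NP137 2, and 107892 and 2153626 in Control 1 and Control 2. A single UMI was therefore worth 0.674 and 6.02 CPM (UMIs of a gene per 1000000 UMIs of the class) in the NP137 libraries and 9.27 and 0.464 CPM in the Control libraries. Median UMIs per member were 2969 and 6591 in NP137 and 3687 and 10510.5 in Control. NP137 2 stood apart in another way: 13 of its 19 members (68.4%) lay among its highest doublet scores, against 41 of 457 in NP137 1, 0 of 22 in Control 1 and 3 of 192 in Control 2. Control 1 members had a median of 10.8% mitochondrial UMIs, against 4.39% to 4.87% in the other libraries. All members of NP137 2 held Xist UMIs and no Y-linked ones, as did 20 of 22 in Control 1, while 132 of 192 in Control 2 held Y-linked UMIs and none held Xist. NP137 1 had 186 members with Xist alone and 52 with Y-linked UMIs alone, so both kinds of cell were read in 1 library. No member barcode was a member in a second library, and 7 occurred among the kept cells of another. Below, each pair of values gives replicate 1 and then replicate 2 of the group named.

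The marker genes stood above their macrophage level, though Trim29 does not mark basal against differentiating keratinocytes here. Krt14 and Krt15 chose the cells, and their levels are a description. Krt14 stood at 12240 and 9026 CPM in NP137 and 5913 and 9909 CPM in Control members, with a median of 24, 53, 17 and 70 UMIs per cell in NP137 1, NP137 2, Control 1 and Control 2. Krt15 stood at 2639 and 1149 CPM in NP137 and 1724 and 2150 CPM in Control members. Krt5, the partner keratin of Krt14 and no part of the gate, stood at 3767 and 2888 CPM in NP137 and 2178 and 3487 CPM in Control members. Macrophages of the same libraries, which should lack it, had 443.6 and 50.1 CPM of Krt5 in NP137 and 116 and 82.9 CPM in Control. Cxadr, a junctional adhesion receptor, stood at 277 and 337 CPM in NP137 and 361.5 and 414 CPM in Control members, against at most 12.0 CPM in macrophages. Trim29, a gene of stratified epithelium, stood at 301 and 337 CPM in NP137 and 334 and 434 CPM in Control members, against at most 18.8 CPM in macrophages.

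The edges of the gate were not sharp. Among cells that met every other limit, 23 had 5 UMIs of Krt14 and 23 had 4, with Krt5 at 2136 and 1221 CPM. Likewise 106 had 2 UMIs of Krt15 and 191 had 1, with Krt5 at 3835 and 4011 CPM. A further 568 such cells had no Krt15 UMI, and 236 had no Epcam UMI. By the label, 113 cells were left out for a single YFP UMI without Cdkn2a and 104 for a single Cdkn2a UMI without YFP. A single UMI of either need not come from the cell. A YFP UMI was held by 12.0% and 3.56% of macrophages in the NP137 libraries and 22.9% and 13.7% in the Control libraries. For a Cdkn2a UMI the shares of macrophages were 10.8% and 4.68% in the NP137 libraries and 44.9% and 22.3% in the Control libraries.

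**Figure D1:**
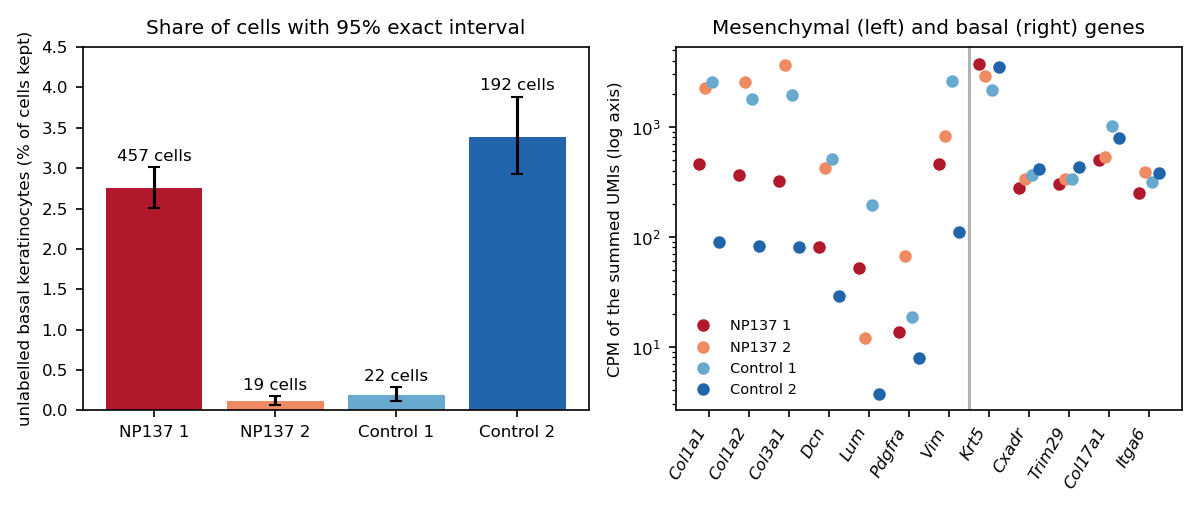
Left, unlabelled basal keratinocytes as a percentage of the cells kept in each library, with 95% exact binomial intervals and the number of cells. Right, CPM of mesenchymal and basal genes in the summed UMIs of these cells, 1 point a library on a log axis; NP137 1 and Control 2 hold most members, and the collagens of NP137 2 and Control 1 lie above those of the other libraries, while basal genes lie close together.

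Transcripts of other cell types were read in the members by fixed marker lists. The 6 fibroblast markers (Col1a1, Col1a2, Col3a1, Dcn, Lum and Pdgfra) were all detected in every library and summed to 1290.0 and 8960.0 CPM in NP137 and to 7007 and 292 CPM in Control members. Macrophages of the same libraries held 1913 and 8715 CPM of that list in NP137 and 2919 and 1786 CPM in Control. Counted per cell at unequal depth, 2 or more of these markers were found in 10.9% and 89.5% of members in NP137 and 40.9% and 65.6% in Control. In the sums, though not in this count per cell, the small member sets of NP137 2 and Control 1 both stood far above the large sets of NP137 1 and Control 2. Vim, an intermediate filament gene of mesenchymal cells, followed the same split with a narrower gap. It stood at 458.6 and 824 CPM in NP137 and 2595 and 111 CPM in Control members. The 6 macrophage markers summed to 21.6 and 90.3 CPM in NP137 and 74.2 and 23.2 CPM in Control members, against 9787 CPM or more in macrophages. Neutrophil markers, led by S100a8 and S100a9, which stressed keratinocytes make too, summed to 1228 and 632 CPM in NP137 and 185 and 466 CPM in Control members. The Merkel cell markers were Krt8, Krt18, Krt20 and Atoh1. Krt20 and Atoh1 were at 0 in the members of all 4 libraries. Through Krt8 and Krt18 the list summed to 44.45 and 18.05 CPM in NP137 and 55.6 and 9.75 CPM in Control members. The part of these transcripts in the results below was not tested.

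Genes of adhesion to the basement membrane stood above their macrophage level in all 4 libraries. Col17a1, a transmembrane collagen of hemidesmosomes, stood at 502 and 536 CPM in NP137 and 1010.3 and 794 CPM in Control members. The integrin subunits of the hemidesmosome followed, with Itga6 at 250.5 and 391 CPM in NP137 and 315 and 378 CPM in Control, and Itgb4 at 160 and 283 CPM in NP137 and 250.3 and 266 CPM in Control. Trp63, the transcription factor that maintains stratified epithelium, stood at 129 and 187 CPM in NP137 and 111 and 239 CPM in Control members. Follicle genes were read beside their macrophage level. Sox9, a hair follicle stem cell factor, ranged from 223 to 381 CPM over the 4 libraries, against 6.87 to 63.1 CPM in macrophages. Lhx2, a bulge transcription factor, ranged from 46.9 to 58.6 CPM, against 0.628 to 12.0 CPM in macrophages. Cd34, a bulge surface marker that other cells carry too, ranged from 48.5 to 78.2 CPM, against 25.9 to 52.7 CPM in macrophages. Lgr5, the gene whose promoter drives the recombinase, stood at 18.2 and 12.0 CPM in NP137 and 46.3 and 27.9 CPM in Control members, the values of NP137 2 and Control 1 resting on 2 and 5 UMIs.

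At equal depth, with each cell thinned to 2000 UMIs, NP137 1 and Control 2 were the only libraries with at least 20 such members (329 and 183; 128 and 9 shallower members were left out, and NP137 2 and Control 1 had 19 and 17). With 1 library a group there is no test, and the intervals cover counting error only. Krt5 was found in 97.6% of members of NP137 1 and 97.3% of Control 2, against 40.1% and 17.9% of their macrophages, whose median depths were 2363 and 9690 UMIs before thinning. Of the 22 genes chosen for this reading, 6 had 95% exact intervals that did not overlap between the libraries. Which genes these were moved with the setting: Fos alone stayed apart in all settings, Krt16 and Ly6a overlapped without thinning, Cxadr, Itga6 and Col17a1 at 1000 UMIs, and Cxadr also with doublets removed. Krt16, a keratin of wounded epidermis, was found in 35.6% (30.4 to 41.0) of members in NP137 1 and 15.3% (10.4 to 21.4) in Control 2, but also in 25.8% and 10.97% of macrophages. Ly6a, a surface protein of stem and stressed cells, was found in 37.1% and 18.03%, against 20.9% and 22.9% of macrophages. Col17a1 was found in 53.8% (48.3 to 59.3) of members in NP137 1 and 77.6% (70.9 to 83.4) in Control 2, with 7.25% and 6.90% of macrophages. Cxadr (36.2% and 57.4%), Itga6 (37.7% and 52.5%) and Fos (73.6% and 89.6%) were likewise found in a smaller share in NP137 1. Fos was in 63.3% and 89.3% of macrophages, the same order as in members.

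Dividing cells were in the minority, as were cells with a UMI of Cd34, of Lgr5 or of Lgr6. Mki67 or Top2a, which mark proliferating cells, were found in 22.8% of thinned members in NP137 1 and 13.1% in Control 2. Mki67 alone was found in 14.0% and 7.10% of members and in 14.5% and 9.72% of macrophages of the same libraries. Cd34 was found in 5.47% (3.27 to 8.51) of members in NP137 1 and 11.5% (7.25 to 17.0) in Control 2, against 4.48% and 3.76% of macrophages, so in NP137 1 it was not above background. Lgr5 was found in 2.74% and 4.92% of members, against 0% and 0.940% of macrophages, and Lgr6 in 2.43% and 6.56%, against 0.426% and 0%. Postn, a matricellular gene made by bulge cells and read besides the 22, was found in 60.2% (54.7 to 65.5) and 80.9% (74.4 to 86.3), intervals that do not overlap, against 10.9% and 17.2% of macrophages. Krt6a, a wound keratin, was in 62.1% of the 198 members with a Postn UMI and 56.5% of the 131 without in NP137 1. In Control 2 it was in 49.3% of 148 and 42.9% of 35. Krt16 was in 30.3% of members with a Postn UMI and 43.5% of those without in NP137 1, and in 12.2% and 28.6% in Control 2. No interval or test was made for these pairs of shares.

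**Figure D2:**
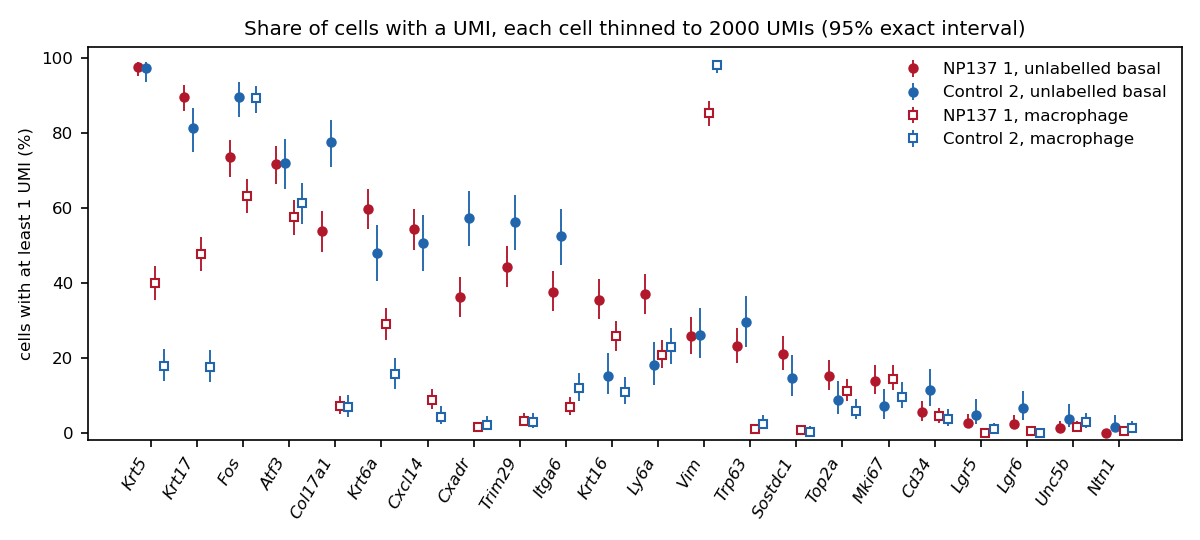
Percentage of cells with at least 1 UMI of each gene after thinning every cell to 2000 UMIs, for unlabelled basal keratinocytes (filled circles) and macrophages (open squares) of NP137 1 and Control 2, with 95% exact binomial intervals. Krt5 is near 97% in members of both libraries, Col17a1 and Cxadr lie higher in Control 2, and Krt16 and Ly6a lie higher in NP137 1.

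Unlabelled basal cells were next set against YFP-labelled basal cells, which met the same keratin gate but held at least 1 YFP UMI (354 and 10 cells in NP137, 40 and 58 in Control). Their Cdkn2a count was not limited, so the classes differ in Cdkn2a by choice too. Of these 462 labelled cells, 231 held a Cdkn2a UMI and 113 held a single YFP UMI without Cdkn2a, which need not come from the cell. UMIs were summed per library and class and compared within libraries by edgeR's quasi-likelihood test over NP137 1, Control 1 and Control 2, since NP137 2 fell under 20 cells in both classes. Of 8414 genes tested, 81 were higher (0.963%) and 115 lower (1.37%) in unlabelled cells at an adjusted p under 0.05, 2.33% in all, and 3 of these were gate genes. DESeq2 called 90 genes besides the gate genes, against 193 by edgeR. The count was 48 without Control 2, 32 without NP137 1, 682 without Control 1 and 82 with the highest doublet scores removed. In every one of these fits each of the 193 genes that could be tested kept its sign. Labelled cells were deeper than unlabelled ones, with median UMIs of 2969 and 6591 in unlabelled and 4315 and 13295 in labelled cells of NP137, and 3687 and 10510.5 in unlabelled and 6541 and 12929 in labelled cells of Control.

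The floxed gene of this model differed between the classes. Trp53, the gene of the tumour suppressor p53, stood at 75.4 and 114 CPM in NP137 and 46.3 and 87.8 CPM in Control unlabelled cells, against 21.2 and 27.4 CPM in NP137 and 16.4 and 43.3 CPM in Control labelled cells. It was higher in unlabelled cells in all 4 libraries (log2 fold change 1.59 ± 0.24 SE, edgeR adjusted p = 0.00412), though the labels do not name the deleted exons and these 3′ tags may lie outside them. Without NP137 1 or Control 2 it no longer passed (adjusted p up to 0.336).

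Genes next to Cdkn2a moved the same way as that gate gene. Cdkn2a, which was at 0 in members by choice, lies on chromosome 4 at 89274471 to 89294653 (GRCm38, minus strand). Mtap, an enzyme of methionine salvage at 89137122 to 89181081 on the plus strand, stood at 37.7 and 30.1 CPM in NP137 and 37.1 and 32.0 CPM in Control unlabelled cells, against 208 and 247 CPM in NP137 and 211 and 173 CPM in Control labelled cells. Its log2 fold change was -2.29 ± 0.19 SE (edgeR adjusted p = 2.03e-05), and it passed with each library left out. Cdkn2b, a cell cycle inhibitor at 89306299 to 89311039 on the minus strand, stood at 17.5 and 6.02 CPM in NP137 and 9.27 and 19.97 CPM in Control unlabelled cells, against 70.5 and 54.8 CPM in NP137 and 74.0 and 65.6 CPM in Control labelled cells (log2 fold change -1.75 ± 0.26 SE, edgeR adjusted p = 0.0034). Cdkn2b reached an adjusted p of 0.16 with a library left out. Mtap and Cdkn2b were named after their values were seen, and the rule's use of Cdkn2a bears on both.

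Genes of antigen presentation by MHC class I were higher in unlabelled cells as a group. Of 14 members tested, 7 rose and none fell, with a median log2 fold change of 0.90 against -0.01 over all genes. H2-K1, a classical class I heavy chain, stood at 1383 and 1204 CPM in NP137 and 1344 and 1015 CPM in Control unlabelled cells, against 694 and 521 CPM in NP137 and 455 and 711 CPM in Control labelled cells (log2 fold change 1.13 ± 0.18 SE, edgeR adjusted p = 0.00509). H2-D1, the other such heavy chain, rose alike (log2 fold change 0.99 ± 0.16 SE, edgeR adjusted p = 0.00509). B2m, their light chain, stood at 945 and 1348 CPM in NP137 and 816 and 1349.8 CPM in Control unlabelled cells, against 474 and 581 CPM in NP137 and 483 and 1160.4 CPM in Control labelled cells, a small difference in Control 2. Psmb8 and Psmb9, subunits of the immunoproteasome, Tap1, the peptide transporter, and H2-T23, a nonclassical heavy chain, were the other 4. Tap1 was lower in the unlabelled cells of NP137 2, at 48.1 CPM against 60.3 CPM in its labelled cells. None of the 7 passed without NP137 1 (adjusted p of at least 0.229), and 4 of the 7 lost their call without Control 2.

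The class II genes Cd74, H2-Ab1, H2-Aa and H2-Eb1 also rose over the 3 libraries tested; they were named for the size of their folds, not from a class II list. Cd74, the invariant chain, stood at 820.3 and 66.2 CPM in NP137 and 630.3 and 284 CPM in Control unlabelled cells, against 247 and 170.0 CPM in NP137 and 145 and 137 CPM in Control labelled cells. H2-Ab1, a class II chain, stood at 277 and 72.2 CPM in NP137 and 204 and 139 CPM in Control unlabelled cells, against 87.2 and 60.3 CPM in NP137 and 43.9 and 51.5 CPM in Control labelled cells. Cd74 (log2 fold change 1.74 ± 0.19 SE, edgeR adjusted p = 0.000249) and H2-Ab1 (1.82 ± 0.19 SE, 0.000149) passed with each library left out, while H2-Eb1 and H2-Aa did not (adjusted p up to 0.169 for both). In NP137 2, which was not in the fit, Cd74, H2-Aa and H2-Eb1 were lower in unlabelled cells. Of these, H2-Aa and H2-Eb1 stood at 12.0 and 0 CPM there, against 21.9 and 10.97 CPM in labelled cells. Both unlabelled values lay under the 18.05 CPM that 3 UMIs make in those cells. Cd207 and Itgax, which define Langerhans and dendritic cells, stood at 6.06 and 1.35 CPM in the unlabelled cells of NP137 1 and at 0 in those of the other 3 libraries. Macrophages, which carry class II genes in abundance, held 11450 and 5785 CPM of Cd74 in NP137 and 6459 and 6632 CPM in Control. The 6 macrophage markers summed to 21.6 and 90.3 CPM in NP137 and 74.2 and 23.2 CPM in Control unlabelled cells, against 63.6 and 82.2 CPM in NP137 and 79.5 and 18.7 CPM in Control labelled cells.

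The promoters of a class I heavy chain, the light chain and a class II chain are shown because these genes rose together. Each is the 250 bases before the RefSeq start (GRCm38.p6), 5′ to 3′ on the gene's strand. Capitals mark matches, on either strand, to GGG and CCC with any 4 bases between them, the form of a kappa B site, or GAAA and GAAA with any 2 bases between them, the form of an interferon response element, or to CCAAT. All 3 forms were searched in each window. For H2-K1 the first of 2 listed starts was used.
H2-K1 (chr17:34000348-34000597, minus strand): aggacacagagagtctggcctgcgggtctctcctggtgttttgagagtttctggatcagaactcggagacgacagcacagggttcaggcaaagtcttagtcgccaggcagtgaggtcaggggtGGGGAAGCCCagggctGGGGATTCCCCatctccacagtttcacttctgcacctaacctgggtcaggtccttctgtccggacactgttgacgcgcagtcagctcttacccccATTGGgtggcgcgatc
B2m (chr2:122147437-122147686, plus strand): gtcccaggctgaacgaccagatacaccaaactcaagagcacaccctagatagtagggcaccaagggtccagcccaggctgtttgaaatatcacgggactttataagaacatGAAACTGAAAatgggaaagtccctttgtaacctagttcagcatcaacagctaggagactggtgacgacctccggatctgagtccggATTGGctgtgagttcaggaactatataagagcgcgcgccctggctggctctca
H2-Aa (chr17:34287824-34288073, minus strand): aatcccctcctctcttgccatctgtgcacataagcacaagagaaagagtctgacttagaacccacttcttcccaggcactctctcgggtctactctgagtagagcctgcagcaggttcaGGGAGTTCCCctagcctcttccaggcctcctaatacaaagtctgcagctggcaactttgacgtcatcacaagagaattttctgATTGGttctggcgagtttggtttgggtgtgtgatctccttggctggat
The window of H2-K1 held 3 matches to the kappa B form, of which 2 overlap, and that of H2-Aa held 1, 131 bases before the start. The interferon form was found once, in B2m, 139 bases before the start. CCAAT, read as ATTGG on the gene's strand, was found once in each window, 16 bases before the start in H2-K1, 53 in B2m and 48 in H2-Aa. Of 32851 RefSeq promoter windows of this length, 10.3% held the kappa B form, 2.98% the interferon form and 33.8% CCAAT. A match is a description of the letters in the window. Sites that depart from these forms were not searched, so a window without a match may still hold such a site.

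Genes lower in unlabelled cells included Hmga2, Pitx1 and the keratin pair of simple epithelium, Krt8 and Krt18. Hmga2, a chromatin protein of embryonic and tumour cells, stood at 7.41 and 6.02 CPM in NP137 and 9.27 and 11.6 CPM in Control unlabelled cells, against 111 and 225 CPM in NP137 and 195 and 183 CPM in Control labelled cells. Its log2 fold change was -3.79 ± 0.24 SE (edgeR adjusted p = 1.95e-06), the classes did not overlap, and it passed in every fit that left out a library. Krt18 stood at 33.7 and 6.02 CPM in NP137 and 27.8 and 3.25 CPM in Control unlabelled cells, against 349 and 164 CPM in NP137 and 249.5 and 50.4 CPM in Control labelled cells. Krt8, its partner keratin, fell by 2.82 on the log2 scale (± 0.28 SE, edgeR adjusted p = 9.13e-05). Pitx1, a limb transcription factor, stood at 11.4 and 0 CPM in NP137 and 0 and 0.464 CPM in Control unlabelled cells, against 203 and 43.9 CPM in NP137 and 192 and 11.7 CPM in Control labelled cells. S100a4, a calcium-binding protein of motile cells, and Twist1, a transcription factor of the epithelial-mesenchymal transition, were the 2 of 17 mesenchymal genes tested that fell (log2 fold change -2.14 ± 0.19 and -2.63 ± 0.31 SE, edgeR adjusted p = 3.29e-05 and 0.00057). Ccnd1, a cell cycle driver named after its values were seen, fell by 2.16 (± 0.20 SE, edgeR adjusted p = 5.31e-05).

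Areg and Ereg, ligands of the EGF receptor, were lower, as were 5 hypoxia and glycolysis genes. Of 14 EGF family genes tested, Areg and Ereg fell and Erbb3 rose, with a median log2 fold change of 0.00. Areg stood at 212 and 301 CPM in NP137 and 55.6 and 104 CPM in Control unlabelled cells, against 714 and 565 CPM in NP137 and 592 and 451 CPM in Control labelled cells (log2 fold change -2.03 ± 0.25 SE, edgeR adjusted p = 0.00182, and 0.0713 with doublets removed). Ereg, a related ligand, fell by 2.86 (± 0.24 SE, edgeR adjusted p = 1.99e-05), but in NP137 2 it was higher in unlabelled cells, at 120.3 CPM against 76.8 CPM in labelled cells. Of 19 hypoxia and glycolysis genes tested, 5 fell, none rose and none had a fold change above 0, with a median of -0.85. They were Bnip3, a mitochondrial protein induced by low oxygen, the glycolytic enzymes Gapdh, Pfkl and Tpi1, and Ddit4, an inhibitor of mTOR signalling. Gapdh stood at 712 and 770.3 CPM in NP137 and 797 and 488 CPM in Control unlabelled cells, against 1499 and 4446 CPM in NP137 and 2553 and 869 CPM in Control labelled cells. Without Control 2, or without NP137 1, none of the 5 passed, with adjusted p up to 0.482.

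Few genes of the epithelial lists passed. Fcgbp, a mucin-like secreted protein, stood at 224 and 108 CPM in NP137 and 213 and 221 CPM in Control unlabelled cells, against 45.8 and 0 CPM in NP137 and 43.9 and 60.9 CPM in Control labelled cells (log2 fold change 2.26 ± 0.19 SE, edgeR adjusted p = 1.99e-05). It passed with each library left out. Postn and Plet1, an epithelial surface protein, were the 2 of 23 hair follicle stem cell genes tested that rose. Postn stood at 946 and 2467 CPM in NP137 and 2002 and 1871 CPM in Control unlabelled cells, against 341 and 356 CPM in NP137 and 565 and 1146 CPM in Control labelled cells (log2 fold change 1.45 ± 0.19 SE, edgeR adjusted p = 0.00105, up to 0.114 with a library left out and 0.0856 with doublets removed). Fibroblast markers summed to 1299 and 2769 CPM in NP137 and 1771 and 793 CPM in Control labelled cells, so that they were higher in unlabelled cells of NP137 2 and Control 1 and lower in those of Control 2. Of 17 junction genes tested, Cdh1 (E-cadherin) and Cldn1, a tight junction claudin, rose. Of 24 basal keratin and keratinocyte genes tested, Cxadr alone rose (log2 fold change 0.85 ± 0.18 SE, edgeR adjusted p = 0.0268), and 23 did not pass. Of 21 hemidesmosome genes, Itga3, an integrin subunit, alone fell (-1.15 ± 0.20 SE, 0.00664). None of Cdh1, Cldn1, Cxadr and Itga3 passed without NP137 1 or without Control 2 (adjusted p up to 0.666). Krt5, Trp63, Col17a1, Itga6, Krt6a, Krt16 and Krt17 did not pass, with log2 fold changes from -0.49 to 0.52.

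**Figure D3:**
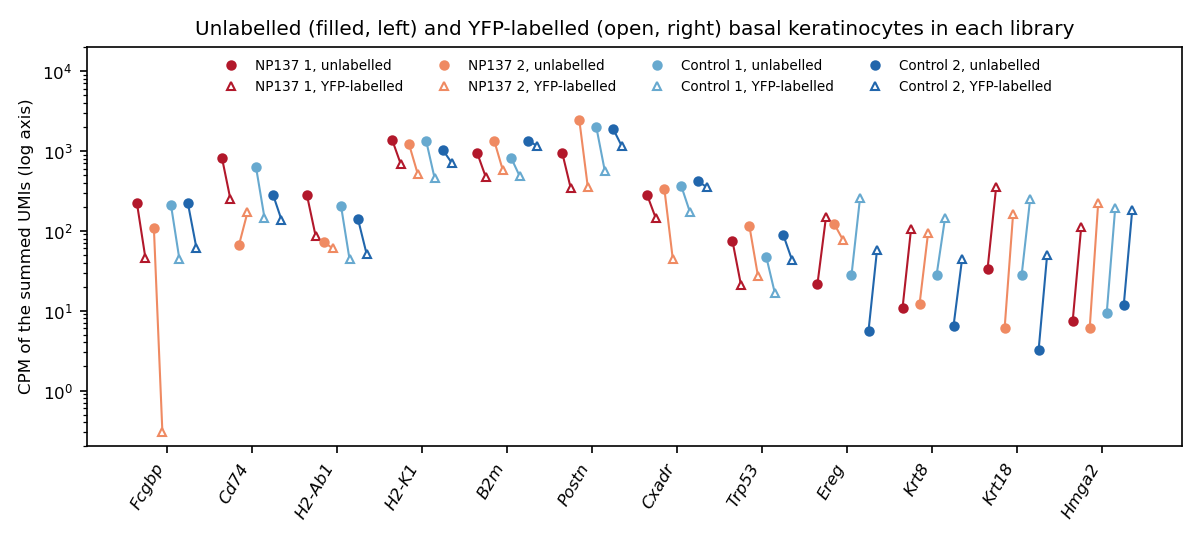
CPM of 12 genes in unlabelled (filled circles, left) and YFP-labelled (open triangles, right) basal keratinocytes of each library, on a log axis, with a line joining the classes of 1 library; a value of 0 (Fcgbp in labelled cells of NP137 2) is drawn at the foot. Fcgbp, H2-K1, B2m, Postn, Cxadr and Trp53 are higher and Krt8, Krt18 and Hmga2 lower in unlabelled cells of all 4 libraries, while Cd74 and Ereg turn the other way in NP137 2.

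The remaining lists held few genes that passed. Among differentiation genes Dmkn and Lgals7, secreted and cytoplasmic proteins of epidermis, rose and Spink5, a protease inhibitor, fell, of 8 tested. Ly6d and Thbs1 rose of 13 interfollicular genes, Ccl27a and Cxcl16 of 16 chemokine and cytokine genes and F3 of 13 YAP target genes. Phlda3, a p53 target in normal cells, fell while Trp53 rose, of 13 p53 pathway genes, and Cdkn1a and Mdm2, which p53 also induces, did not pass (log2 fold change 0.42 ± 0.21 and 0.29 ± 0.24 SE). Rpl4 of 20 ribosomal protein genes and Fosb of 20 immediate early genes rose, and none passed of 18 S phase, 20 G2 and M phase, 19 TGF-beta, 13 mitochondrial or 5 netrin genes. Of the genes with the largest folds by the naming rule, Sprr2a3, BC117090, Slc27a3 and Tppp3 were also higher, and Aqp5, Prkg2, Wfdc2, Pgf and Upp1 also lower. In NP137 2, BC117090, Cxcl16, Ddit4 and Ly6d turned the other way, and Aqp5 and Spink5 were at 0 in both classes. Sprr2a3 shares much of its sequence with other Sprr2 genes, so its count is uncertain.

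Unlabelled basal cells were also set beside unlabelled differentiating keratinocytes, with at least 10 UMIs of Krt1, Krt10 and Krt79 together (233 and 11 cells in NP137, 8 and 165 in Control). The differentiating class had no minimum of Krt14 or Krt15, which the basal class needed. Since the keratins of differentiation cut both classes, and Krt14 and Krt15 the basal class, this comparison describes the cut and is no test of it. Genes that move with any of these keratins are partly fixed by the choice of cells. NP137 1 and Control 2 had the cells for it, and of 9323 genes 650 were higher (6.97%) and 725 lower (7.78%) in basal cells, 14.7% in all. Of 21 hemidesmosome and basement membrane genes, 17 were higher and none lower, with a median log2 fold change of 1.24. Col17a1 stood at 502 CPM in NP137 1 and 794 CPM in Control 2 basal cells, against 88.3 CPM and 179 CPM in the differentiating cells of NP137 1 and Control 2. Itgb1, Dst, Lamb3 and Itga6, which are further parts of the anchorage, were higher by 1.47, 1.56, 1.71 and 1.12 on the log2 scale. Follicle stem cell genes leaned the same way, with 12 of 23 higher and 2 lower. Lhx2 stood at 58.6 CPM in NP137 1 and 46.9 CPM in Control 2 basal cells, against 3.31 CPM and 2.22 CPM in differentiating cells of NP137 1 and Control 2. Lgr5, Lgr6, Tbx1 and Cd34 were among the 12, while Plet1 and Foxc1 were the 2 lower ones, and Sox9 did not pass (log2 fold change 0.05 ± 0.12 SE).

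The basal keratin and keratinocyte list itself was split, with 8 of 24 genes higher, among them Krt5 and Trp63, 8 lower, among them Perp and Notch1, and a median log2 fold change of 0.09. Of 18 G2 and M phase genes 13 were higher in basal cells and none lower, and of 19 S phase genes 9 and none. Top2a stood at 123 CPM in NP137 1 and 72.4 CPM in Control 2 basal cells, against 27.6 CPM and 35.5 CPM in differentiating cells of NP137 1 and Control 2. Of 13 YAP target genes 8 were higher, among them Ctgf and Cyr61, secreted matrix proteins. Differentiation genes were lower for 13 of 17 and junction genes for 14 of 19, with medians of -3.45 and -0.80. Lgals7 was abundant in both, at 8533 CPM in NP137 1 and 6877 CPM in Control 2 basal cells, against 20801 CPM and 16579 CPM in differentiating cells of NP137 1 and Control 2. The wound keratin Krt6a was lower too, at 917 CPM in NP137 1 and 926 CPM in Control 2 basal cells, against 2259 CPM and 1726 CPM in differentiating cells of NP137 1 and Control 2. Sdr16c6 was at 0 in basal cells of all 4 libraries, with 98.2 and 80.0 CPM in NP137 and 106 and 99.5 CPM in Control differentiating cells. Cidea, a lipid droplet protein of sebaceous cells, and Defb6, a beta-defensin, were among the genes of largest fold on the lower side. The basal marker Trim29 was lower in basal cells (log2 fold change -0.77 ± 0.13 SE), at 301 CPM in NP137 1 and 434 CPM in Control 2, against 557 CPM and 632 CPM in differentiating cells of NP137 1 and Control 2. Besides gate genes, edgeR called 1370 genes, DESeq2 366, of which 352 were shared, and a fit without the library block 47.

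**Figure D4:**
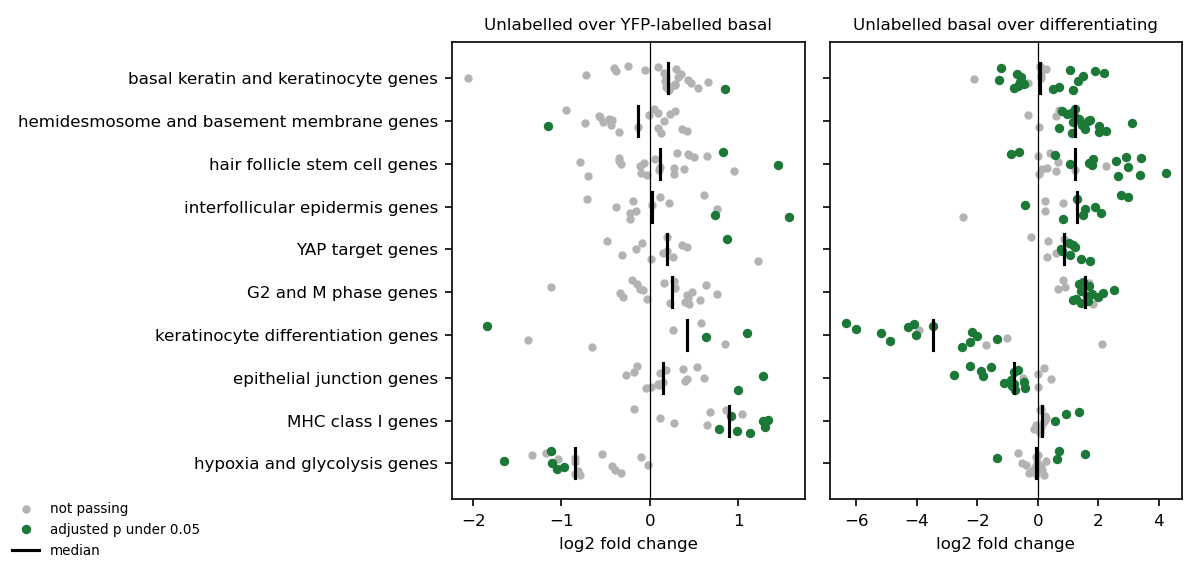
Log2 fold change of each gene of 10 lists, unlabelled basal over YFP-labelled basal cells (left) and unlabelled basal over differentiating keratinocytes (right). In the right panel both classes were cut by differentiation keratins, and the basal class by Krt14 and Krt15 too. Green points have an edgeR adjusted p under 0.05 and black bars are medians. On the left, 13 of 14 MHC class I genes lie to the right of 0 and all 19 hypoxia and glycolysis genes to its left; most hemidesmosome, follicle stem cell and cycling genes lie to the right of 0 on the right.

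NP137 and Control members were compared with NP137 1 against both Control libraries, since NP137 2 had 19 cells. Of 9531 genes tested by edgeR none passed an adjusted p of 0.05 (0% in either direction), with 159 at an unadjusted p under 0.05. DESeq2 called none, with 22 at an unadjusted p under 0.05, and neither did edgeR with all 4 libraries. With 1 degree of freedom left over, the fit had little power, and the absence of calls does not show that the cells were alike.

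Values of the genes closest to a difference are given as a description. Mmp13, a collagenase, stood at 97.7 and 12.0 CPM in NP137 and 9.27 and 4.64 CPM in Control members (log2 fold change 4.25 ± 0.61 SE, edgeR adjusted p = 1). Birc5, a mitotic gene, stood at 133 and 84.3 CPM in NP137 and 27.8 and 33.4 CPM in Control members, and 19 of 20 G2 and M phase genes tested had a fold change above 0. Fabp4, Retnlg, Ifitm1 and 1500015O10Rik were the other 4 named on the higher side. Retnlg is a neutrophil gene and on the neutrophil marker list, whose sum was highest in NP137 1. On the lower side stood Igfbp5, Hip1, Enpp1, Fzd7, Gm10076 and Rpl10-ps3. Igfbp5, which binds insulin-like growth factors, stood at 16.2 and 114 CPM in NP137 and 102 and 78.0 CPM in Control members, so NP137 2 lay with the Control libraries. Gm10076 had 74.8 and 770.3 CPM in NP137 and 565 and 1004 CPM in Control members, and its labelled cells had 70.5 and 598 CPM in NP137 and 458 and 817 CPM in Control, so NP137 1 was low in both classes. The last gene, Rpl10-ps3, is a pseudogene whose reads may be shared with its parent gene.

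Among the fixed lists, no gene passed between NP137 and Control members. All 11 type I interferon genes tested had a fold change above 0, with a median of 0.54, as did 18 of 19 hypoxia and glycolysis genes, with a median of 0.47, against a median of 0 over all genes. Chemokine and cytokine genes had the median farthest above 0 of the lists, 1.23, with 16 of 20 above 0. Il1b stood at 90.9 and 331 CPM in NP137 and 27.8 and 3.71 CPM in Control members, and Cxcl2, a neutrophil chemokine, at 559.6 and 1047 CPM in NP137 and 176 and 40.4 CPM in Control. For these 2 genes the groups did not overlap over the 4 libraries. The share of all genes apart over the 4 libraries is not given here. Over the 3 libraries of the fit, a looser condition, 58.1% of the 9531 genes tested did not overlap between the groups. Macrophages and neutrophils can make both transcripts, and the part of such cells in these values was not tested. Hemidesmosome genes were below 0 for 16 of 21, with a median of -0.21, and mesenchymal genes for 13 of 17, with a median of -0.72. Fn1, a matrix protein, showed how far single libraries set these medians, at 75.4 and 512 CPM in NP137 and 677 and 79.9 CPM in Control members.

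The target of the antibody and its receptors were barely read in these cells. Ntn1, the gene of netrin-1, had 1 and 0 UMIs in NP137 and 1 and 9 UMIs in Control members, and was too low to be tested. At equal depth it was found in 0 of 329 thinned members of NP137 1, where 3 counts would be a share of 0.912% of cells with a UMI (exact upper bound 1.11%), and in 1.64% (0.339 to 4.72) of Control 2, against 0.640% and 1.25% of macrophages. Unc5b, a netrin receptor, had 10 and 0 UMIs in NP137 and 9 and 21 UMIs in Control members, which is 6.74 and 0 CPM in NP137 and 83.4 and 9.75 CPM in Control. Neo1, a further netrin receptor, was the steadiest of them at 16.8 and 30.1 CPM in NP137 and 18.5 and 20.4 CPM in Control members. Ntn4, a netrin of basement membranes, had 5 and 0 UMIs in NP137 and 0 and 35 UMIs in Control members. No UMI of Dcc, the classical netrin receptor, was found in the members of any library.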

How the data were processed

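Single-cell RNA was read with 10x Genomics droplets in 4 libraries, 2 NP137 and 2 Control. Deposited were UMI counts of each gene in each barcode, and the file headers name 10x software 3.0.2; mm10 and Seurat 3.1.5 are named in the submitters' processing notes. The labels name a V2 chip and a V3 library kit. Members and gene lists were chosen with earlier results of these data known. Doublets were scored with Scrublet in scanpy 1.11.5, marking the highest 0.8% of cells per 1000 barcodes, and kept in the main results. Summed UMIs of each class in each library, with 20 cells or more, were compared with edgeR 4.0.16 (TMM, filterByExpr, robust quasi-likelihood fit, library as a term between classes) in R 4.3.3, with Benjamini-Hochberg adjustment at 0.05. Gate genes stayed in the sums and are given with no test. CPM are UMIs per 1000000 of the class sum. Shares of cells were read after thinning to 2000 UMIs; all intervals and floors (3 counts) cover counting error only. Named genes were the 10 of largest fold per direction that passed, averaged at least 20 CPM and did not overlap in any library compared, filled to 6 by smallest p, with the basal keratin, hemidesmosome and netrin lists and the 3 smallest p of every other list; others are marked where they appear. The alternatives tried were DESeq2 1.42.0, its size factors, no low-count filter, left-out libraries, other blocks, gates and depth limits, and doublets removed. The fits across genes were tested on simulated data. A further allele carried by all groups and some gene results are not reported here. GENCODE M21 (GRCm38) gave coordinates and matched 31011 of 31053 gene IDs; RefSeq GRCm38.p6 gave promoters.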

Additional observations from a re-analysis of the deposited data

How the results depend on the processing

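Between unlabelled and labelled basal cells, 193 genes passed besides gate genes. The count was 90 with DESeq2, 430 with no low-count filter, 82 with doublets removed, 646 in cells of at least 2000 UMIs, 330 with labelled cells that also held a Cdkn2a UMI (added after seeing the data) and 20 with no replicate block, that is, without the library term. Leaving out 1 library gave 32 to 682. Of 58 genes named or on lists, 14 passed in all 3 of those fits, and 47 had the same sign in all 4 libraries. Against differentiating cells 1370 genes passed, 366 with DESeq2, 47 with no replicate block and 770 with all 4 libraries (added after seeing the data). NP137 against Control gave 0 genes and 12 with no low-count filter (9 higher, 3 lower), and 0 with all 4 libraries and the sample number as a replicate block. Whether the sample numbers pair the libraries cannot be told from these data. Deviations of NP137 1 from its group mean correlated at -0.07 with those of Control 1. With 2 libraries a group, the 0.07 with Control 2 is the same reading with its sign turned. The difference in share between NP137 and Control ranged from -1.95 to 1.24 points with 1 library left out, reversing to 0.966 without NP137 2 and 1.24 without Control 2. Of 22 genes, 6 had intervals apart at 2000 UMIs, 13 unthinned, 5 at 1000 UMIs and 8 with doublets removed, and Fos alone was among them in all settings. The cause of these changes was not tested. For NP137 against Control, leaving out a library, the block on 3 libraries, the stricter gate, the 500-gene limit and the 2000-UMI limit were not run, because no residual degree of freedom or an empty group remained, and likewise left-out libraries against differentiating cells. NP137 2, with 19 members, and Control 1, with 22, limit what these cells can show.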
